A study of Rattus norvegicus with 15 samples.

Results

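The cytosolic ribosomal protein genes were followed across 15 RNA sequencing libraries of rat lung. Members were the genes whose symbol begins with Rpl or Rps in the naming of ribosomal proteins. Names beginning with Rps6k, which are kinases, and names marked -ps, for pseudogenes, were left out. Whether unmarked rows are pseudogenes was not checked. Of 22250 genes in the table, 99 matched by name, and 89 of these reached 1 FPKM, a fragment count corrected for gene length and for the size of the library, in at least 5 libraries. These 89 genes, 51 of the large and 38 of the small subunit, are the members described here, among 13172 genes that passed the same filter. They carry 80 distinct symbols, since 8 symbols stood on more than 1 row.

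All rats were wild type and all libraries came from lung, 5 in each of 3 groups. Control rats were normal. COPD rats had been given lipopolysaccharide and smoke through the trachea as a model of chronic obstructive pulmonary disease. WDD rats had been given both and also Wendan Decoction, a traditional Chinese herbal formula, into the stomach. Strain, age, doses, times and pooling are not given in the labels. Whether the libraries stem from different rats is not stated in the labels, and p-values thus cover only the spread among these samples. In bulk tissue, fewer cells of a type and less RNA per cell cannot be told apart.

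Ribosomal proteins are the protein part of the ribosome. Those of the large subunit surround the site where peptide bonds form, and those of the small subunit hold the messenger RNA while it is decoded. Nearly all of the proteins are needed in equal numbers, and the messenger RNAs of the proteins are short, abundant and present in every cell type of the lung. Most begin with a run of pyrimidines, the TOP motif (5′ terminal oligopyrimidine), through which their translation is held back or released by the mTOR pathway and by the RNA-binding protein Larp1.

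A run of pyrimidines at or near the annotated start was more frequent in the members than in all promoters. RefSeq promoters of the build GRCr8, 250 bases before and 50 bases after each start, were found for 62 of the 80 symbols. A run of at least 8 bases of C or T, touching the 5 bases on either side of the annotated start, was present in 36 of the 62 (58.1%) and in 8.67% of 33469 rat promoters. Here and below, members were counted by symbol, where a match at any start sufficed, and all promoters were counted singly. A run of A or G of the same length was present in 1.61% of the members and in 10.3% of all promoters. The letters CCGGAAG, searched on both strands of the 300 bases, were found in 29% of the members and in 8.75% of all promoters, AAGATGG in 17.7% and 7.01%, and TATAAA in 12.9% and 14.2%. A match describes the letters in this window and not a bound factor. A run can also lie mostly before the annotated start, as in Rps2 below, and is then no TOP motif of the annotated transcript. The 6 sequences below run from 30 bases before the start through the first 10 bases of the transcript. The first 4, with the pyrimidine run in capitals, are large and small subunit genes whose values are given later, except Rpl13, which is shown because its run begins exactly at the start. The last 2, of Rpl7l1 and Rps19bp1, show starts without such a run and were chosen after the values of both genes were seen. Rps9, Rps7 and Rpl5, which departed from the median member in a comparison below, also have one, and Rpl41, Rps3 and Rpl36 have none.
Rpl35 (chr3:43165912-43165951, minus strand): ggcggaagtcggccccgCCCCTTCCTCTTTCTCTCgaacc
Rplp0 (chr12:46718381-46718420, minus strand): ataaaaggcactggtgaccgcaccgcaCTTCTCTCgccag
Rps2 (chr10:14251818-14251857, plus strand): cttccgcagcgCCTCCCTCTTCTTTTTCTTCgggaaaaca
Rpl13 (chr19:68062484-68062523, plus strand): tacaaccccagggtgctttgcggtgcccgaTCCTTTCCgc
Rpl7l1 (chr9:21695688-21695727, plus strand): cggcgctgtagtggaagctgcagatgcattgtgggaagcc
Rps19bp1 (chr7:113693014-113693053, minus strand): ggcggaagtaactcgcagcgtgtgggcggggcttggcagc

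The members were among the abundant messages of the lung, yet their deposited levels spanned a wide range. The mean over 15 libraries was at least 100 FPKM in 35 large and 27 small subunit genes, and at least 1000 FPKM in 6 and 4. Rpl35, Rpl41 and Rplp1 were highest in the large subunit, at 2021, 1462 and 1282 FPKM. In the small subunit Rps15 stood at 1277 and the Rps27a row ENSRNOG00000004426 at 1055 FPKM. Rps27a is made as a fusion with ubiquitin.

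Low values occurred among proteins that every ribosome holds. Rps6, the small subunit protein that S6 kinase phosphorylates, stood at 1.40 FPKM and Rpl9 at 3.12 FPKM, and Rps29 at 6.30 FPKM. Of 77 standard ribosomal protein symbols, 73 had a row and 69 passed the filter, 9 of them with a mean under 30 FPKM. Rpl10a and Rpl23a were listed at 0 in all libraries, Rplp2 did not exceed 0.236 FPKM, and Rpl38 did not pass the filter. Ribosomal protein genes have many near-identical copies in the genome, and how the authors' counting shared fragments among copies is not given in the sources used here. Levels of single members, above all low ones and those of symbols on several rows, are therefore uncertain. The other members that did not pass were the paralogues or like-named rows Rpl30l1, Rpl39l, Rpl3l, Rplp0l1 and Rps10l1 and 1 row of Rpl21.

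Rows that shared a symbol differed in level. The 3 Rpl21 rows that passed held 74.0%, 13.5% and 12.5% of their summed mean level. The main row took 69.7% for Rps4x and 98.9% for Rpl32. The lowest levels in the large subunit, besides Rpl9, were those of Rpl35al1 ENSRNOG00000049536 at 2.17 FPKM and Rpl10l, a copy of Rpl10 known from testis, at 3.42 FPKM. In the small subunit Rps15al4 was at 2.30 FPKM. Rps19bp1 is taken in by the name rule but is no ribosomal protein: it binds Rps19 and regulates the deacetylase SIRT1.

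The whole series differed in makeup between the groups. The 13 mitochondrially encoded messenger RNAs held 8.11% ± 1.94 of the FPKM sum in control, 44.9% ± 12.4 in COPD and 21.7% ± 2.90 in WDD libraries (mean ± SD, n = 5 each), with 65.0% in COPD 1. As deposited, all 13172 genes had a median log2 fold change of -0.81 in COPD against control, 0.54 in WDD against COPD and -0.23 in WDD against control. Summed FPKM of 10 neutrophil markers lay between 45.3 and 98.1 in control, between 11755 and 43142 in COPD and between 87.5 and 443 in WDD libraries. The sum of 6 lung epithelial markers lay between 27426 and 38901, between 4902 and 25047, and between 37305 and 58879 in the same order. T cell markers ranged from 149 to 206 in control, from 23.5 to 64.5 in COPD and from 150 to 208 in WDD libraries. Counts of genes called below are therefore given as deposited and after median-of-ratios scaling, which sets the typical gene equal between libraries. Values of single genes are as deposited unless another scale is named. The part of cell makeup and of mitochondrial messages in the results was not tested.

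Ribosomal protein messages took the largest share of the FPKM sum in WDD libraries. The 89 members together held 7.06%, 6.26%, 5.55%, 5.72% and 5.70% in control 1 to 5. In COPD 1 to 5 they held 3.32%, 6.40%, 5.58%, 4.23% and 4.64%, and in WDD 1 to 5 they held 8.27%, 9.16%, 8.44%, 8.67% and 9.33%. All WDD libraries lay above all others, while control and COPD libraries overlapped. Group means were 6.06% ± 0.622, 4.83% ± 1.19 and 8.77% ± 0.454 (SD, n = 5). Without the mitochondrial messages the share was 6.60% ± 0.707 in control, 8.81% ± 1.04 in COPD and 11.2% ± 0.592 in WDD libraries. On that basis control 1, at 7.81%, overlapped with COPD 5, at 7.31%, and the WDD libraries, from 10.2% to 11.7%, again lay above all others. The order of control and COPD thus depended on whether mitochondrial messages were counted. The summed FPKM of the large subunit was 1.42 ± 0.018 times that of the small subunit in control, 1.53 ± 0.116 times in COPD and 1.40 ± 0.043 times in WDD libraries, with COPD 4 highest at 1.70.

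**Figure D1:**
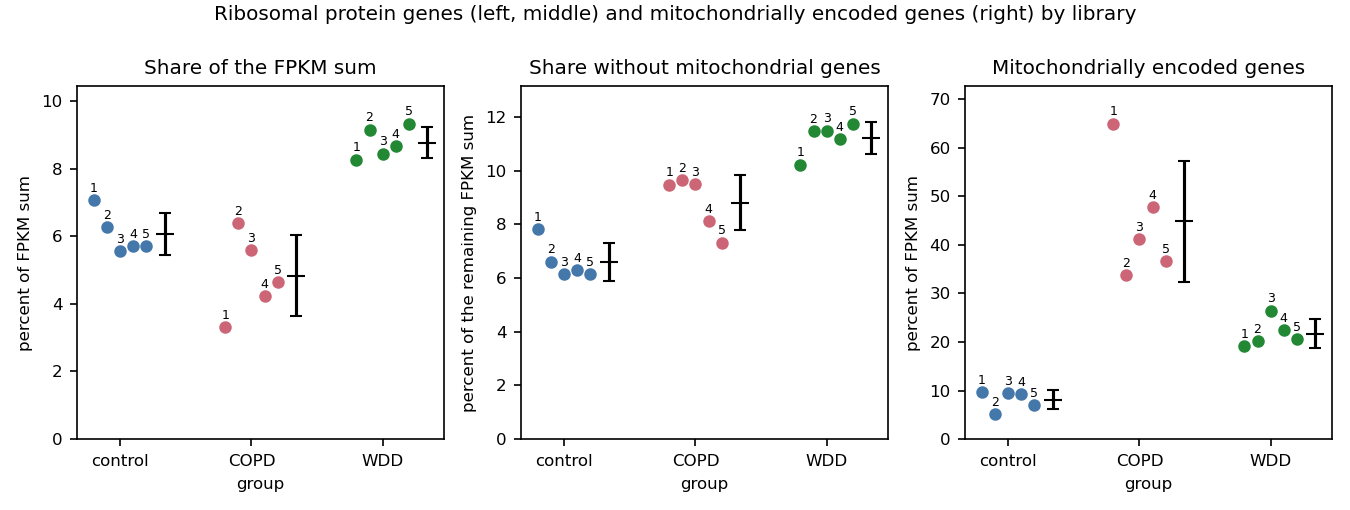
Share of the FPKM sum held by the 89 ribosomal protein genes (left), the same share after leaving out the 13 mitochondrially encoded messages (middle), and the share of those messages (right), in percent. Points are libraries numbered by replicate, and the dash with bars gives mean ± SD (n = 5): WDD libraries are highest in the left and middle panels, and COPD moves from the lowest mean at left to above control in the middle.

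Within a group, many members were highest or lowest in the same library. Control 1 held the highest control value in 77 of the 89 members, COPD 2 the highest COPD value in 70, and COPD 1 the lowest COPD value in 56. WDD 5 was highest in its group for 53 members and WDD 1 lowest for 51. The same counts over all genes were not made. The median-of-ratios factor, which follows the typical gene, was 0.829 in COPD 2 and 0.574 in COPD 1, the highest and lowest of COPD. In control 1 it was 1.30, the lowest of control, and it was 1.08 in WDD 5 and 1.13 in WDD 1. The COPD counts are thus not particular to the members. The spread within groups, as pooled SD of log2(FPKM + 1), had a median of 0.31 over the members and of 0.20 once each library was set relative to the median member. It was widest in COPD libraries, with a median SD of 0.43, against 0.25 in control and 0.15 in WDD libraries.

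**Figure D2:**
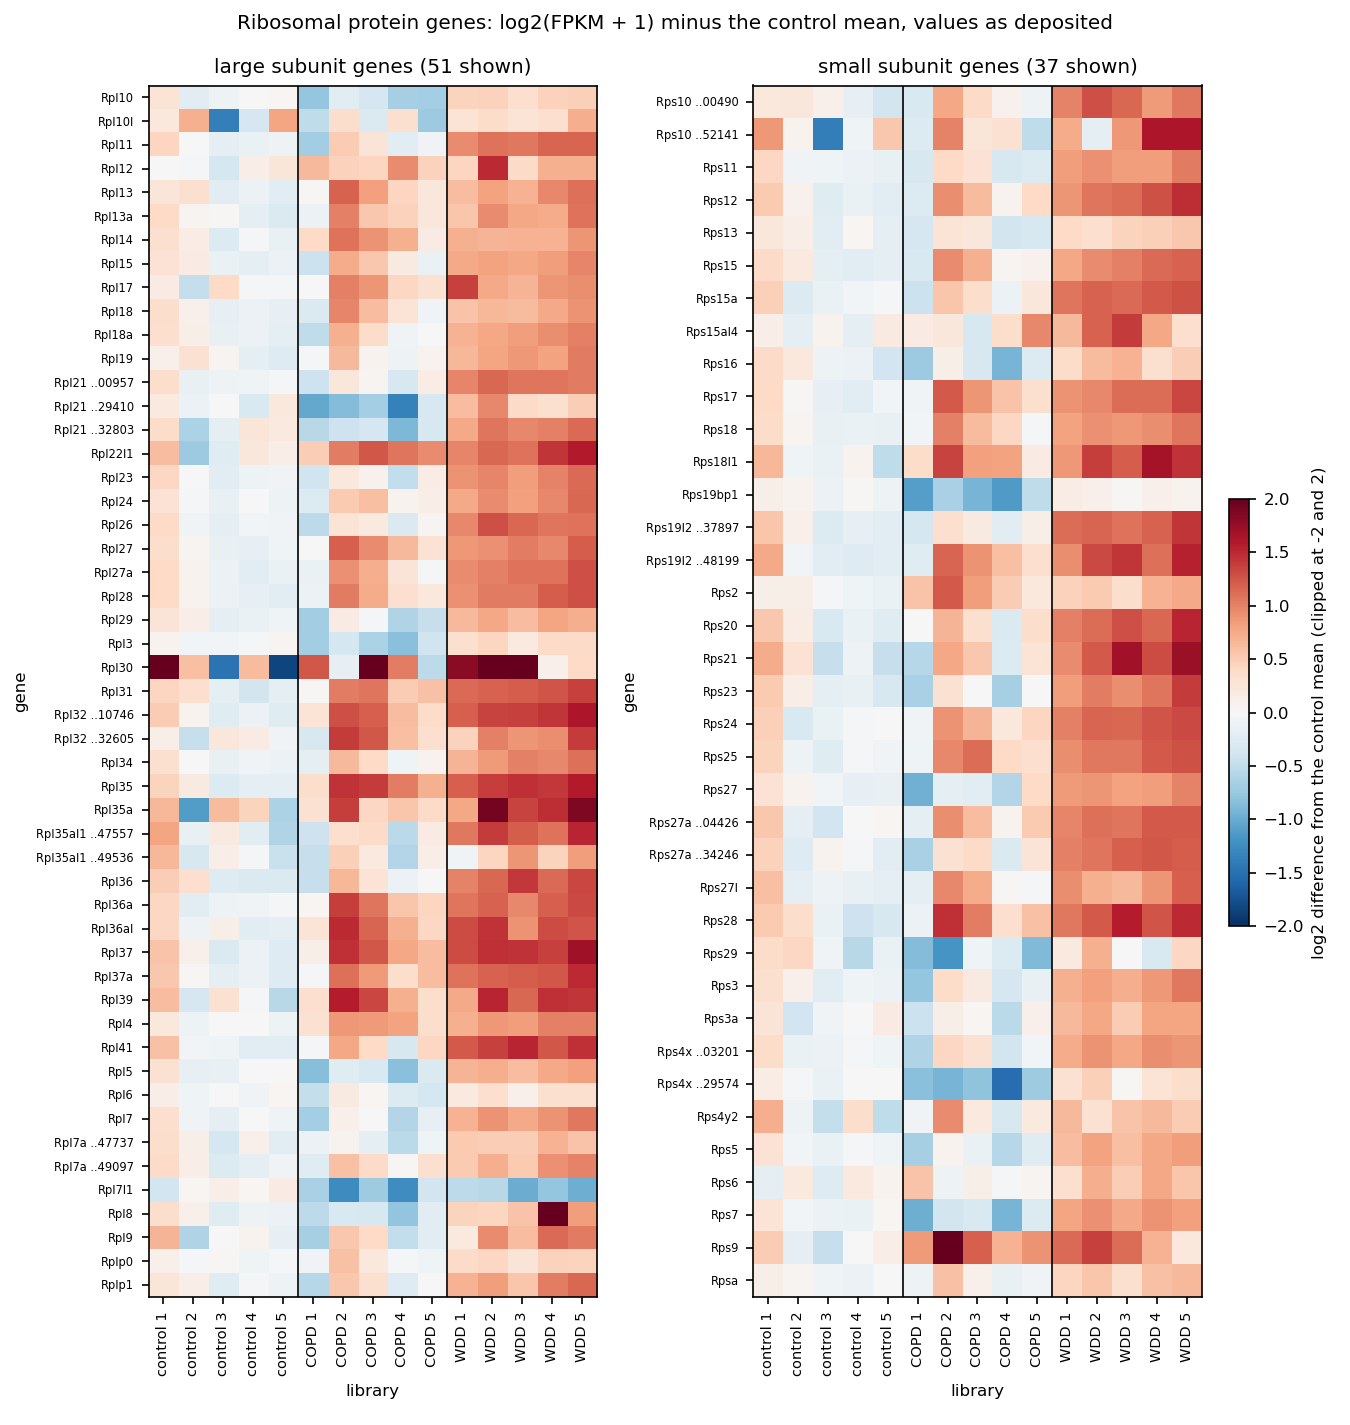
Each row is 1 of 88 members shown and each column a library, and color gives log2(FPKM + 1) minus the control mean as deposited (red higher, blue lower, clipped at -2 and 2). Almost all rows are red across the 5 WDD libraries, COPD columns are mixed with COPD 2 reddest, and Rpl30 changes from library to library within each group.

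The first comparison, COPD against control, addresses the exposure to lipopolysaccharide and smoke. As deposited, 24 members rose, 10 fell and 55 did not pass (limma, Benjamini-Hochberg adjusted p under 0.05), against 8.23% of all genes tested that rose and 66.4% that fell. By subunit, 17 large genes rose and 6 fell, and 7 small genes rose and 4 fell. The median log2 fold change was 0.18 for the large and 0.14 for the small subunit, against -0.81 for all genes. After median-of-ratios scaling 77 members rose and 0 fell (also 0 at an unadjusted p under 0.05), against 30% of all genes that rose and 32.6% that fell. The medians were then 1.10 and 1.05, against -0.05 for all genes. Under both scalings the same 24 members rose, and no member fell under both.

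Rpl35, on the outer face of the large subunit near the peptide exit, had the largest rise of that subunit. It measured 1442, 1198, 873, 929 and 931 FPKM in control 1 to 5 and 1344, 2879, 2778, 2152 and 1734 FPKM in COPD 1 to 5. COPD 1 lay within the control range and the other COPD libraries lay above it. The log2 fold change was 0.99 ± 0.22 (± SE, adjusted p = 0.00067, limma) as deposited and 1.92 ± 0.18 after scaling. Rpl22l1, a paralogue of Rpl22, rose from 54.5, 20.8, 29.7, 41.4 and 38.6 FPKM to 49.7, 72.7, 85.1, 75 and 69.0 FPKM. Only COPD 1 overlapped with control 1, and the log2 fold change was 0.96 ± 0.22 (adjusted p = 0.00086, limma). Rpl39 and Rpl37, small proteins of the large subunit, rose by 0.86 ± 0.27 and 0.84 ± 0.22.

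In the small subunit, Rps9 rose most but at a low level. Its control values were 8.83, 5.09, 4.03, 5.94 and 6.58 FPKM and its COPD values 11.4, 28.3, 14.8, 10.2 and 11.9 FPKM, without overlap. The log2 fold change was 1.14 ± 0.27 (adjusted p = 0.0011, limma). Rps2, which lies at the entry of the messenger RNA channel, rose without overlap from 696 to 830 FPKM in control to 884 to 1776 FPKM in COPD libraries, by 0.67 ± 0.18 (adjusted p = 0.0026, limma). Rps18l1, a row named for its likeness to Rps18, rose by 0.70 ± 0.24. Rps28, a small protein near the messenger exit, rose by 0.66 ± 0.26 as deposited (adjusted p = 0.030, limma). Its call was lost without control 3, 4 or 5 or without COPD 2 or 3, with log2 fold changes of 0.46 to 0.62 and adjusted p of 0.059 to 0.089.

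The members that fell as deposited did not fall after scaling. Rpl10, Rpl3 and Rpl5 were called lower as deposited and higher after median-of-ratios scaling, and were the only 3 members with opposite calls. Rpl3, which lines the catalytic center, measured 203, 187, 187, 191 and 203 FPKM in control and 119, 152, 125, 108 and 148 FPKM in COPD libraries, without overlap. Its log2 fold change was -0.58 ± 0.12 (adjusted p = 0.00035, limma) as deposited and 0.34 ± 0.13 (adjusted p = 0.026, limma) after scaling. Rpl10, which is added late in assembly, had -0.54 ± 0.15 and 0.39 ± 0.12 on the same scales. Rpl5, a binding partner of the 5S ribosomal RNA, had -0.51 ± 0.16 and 0.42 ± 0.15.

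**Figure D3:**
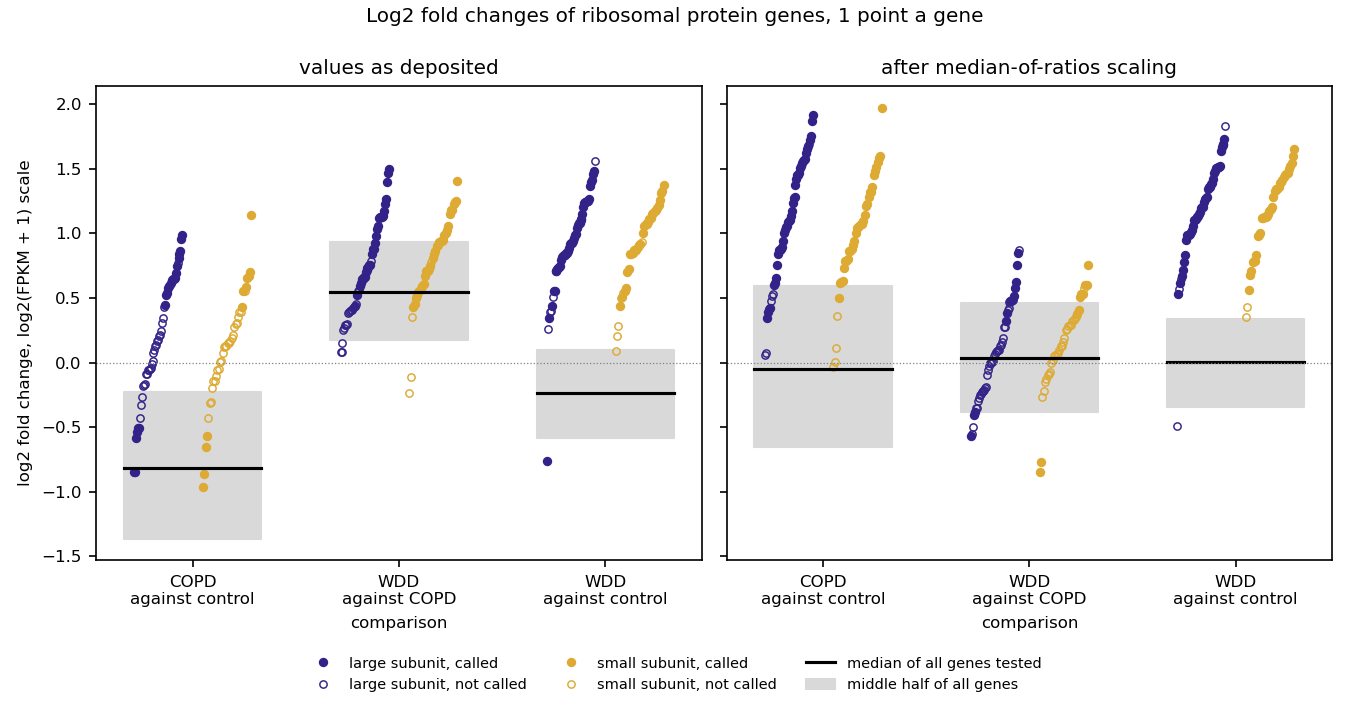
Log2 fold changes of the 51 large (blue) and 38 small (yellow) subunit genes on the log2(FPKM + 1) scale, sorted within each comparison, as deposited (left) and after median-of-ratios scaling (right). Filled points passed an adjusted p of 0.05, the line is the median and the gray band the interquartile range of all 13172 genes: the members lie mostly above the band in both comparisons with control under either scaling, and around it in WDD against COPD.

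The second comparison, WDD against COPD, addresses the treatment of the model. As deposited, 66 members rose, 0 fell (also 0 at an unadjusted p under 0.05) and 23 did not pass (limma), against 57.1% of all genes that rose and 6.63% that fell. In the large subunit 32 genes rose and 19 did not pass, with a median log2 fold change of 0.66, and in the small subunit 34 rose and 4 did not pass, with a median of 0.83. The median of all genes was 0.54. After median-of-ratios scaling 18 members rose and 5 fell, against 23.3% and 21.4% of all genes, and the medians were 0.07 for the large subunit, 0.17 for the small subunit and 0.03 for all genes. The members' share of calls after scaling was thus near or under that of all genes. The 18 genes that rose after scaling also rose as deposited.

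Rps7, a small subunit protein that also binds the p53 regulator Mdm2, showed the largest rise of its subunit. It measured 260, 396, 414, 269 and 421 FPKM in COPD and 884, 961, 869, 955 and 904 FPKM in WDD libraries, without overlap. The log2 fold change was 1.41 ± 0.16 (adjusted p = 3.5e-06, limma) as deposited and 0.76 ± 0.15 (adjusted p = 0.00099, limma) after scaling. Rps23, which sits at the decoding center, rose by 1.25 ± 0.21, Rps27 by 1.18 ± 0.20 and the minor Rps4x row ENSRNOG00000029574 by 1.25 ± 0.15. After scaling these rises were 0.60 ± 0.20, 0.53 ± 0.20 and 0.60 ± 0.18, and all 3 passed.

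Among large subunit genes called under both scalings, minor Rpl21 rows rose most. Row ENSRNOG00000032803 measured 73.3, 81.3, 85.3, 57.9 and 86.8 FPKM in COPD and 185, 229, 213, 219 and 239 FPKM in WDD libraries, a log2 fold change of 1.49 ± 0.18 as deposited. Row ENSRNOG00000029410 rose by 1.40 ± 0.18, and Rpl35al1 ENSRNOG00000047557, like Rpl35a in name, by 1.27 ± 0.24. After scaling the 3 rows had 0.85 ± 0.19, 0.75 ± 0.20 and 0.63 ± 0.23, and all passed. Rpl5 rose by 1.23 ± 0.16 (adjusted p = 9.7e-06, limma), from 339, 516, 496, 342 and 499 FPKM to 981, 1013, 943, 1039 and 1078 FPKM, and by 0.58 ± 0.15 after scaling. WDD and COPD libraries did not overlap for Rpl5. Rpl8, a protein of the catalytic center at low level here, rose by 1.47 ± 0.36 as deposited, but its 0.87 ± 0.38 after scaling did not pass (adjusted p = 0.071, limma). It is named after its values were seen because WDD 4 stood at 92.1 FPKM against 15.4 to 20.8 FPKM in the other WDD libraries.

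The 5 genes that fell after scaling were Rps9, Rps2, Rpl14, Rpl4 and Rplp0, with log2 fold changes of -0.85 ± 0.24, -0.77 ± 0.14, -0.57 ± 0.14, -0.40 ± 0.12 and -0.38 ± 0.12. As deposited the same genes had -0.24, -0.12, 0.08, 0.25 and 0.27, and none of the 5 passed. Rps2 measured 1128, 1776, 1363, 1088 and 884 FPKM in COPD and 1045, 1100, 969, 1232 and 1283 FPKM in WDD libraries. The WDD values lay inside the COPD range.

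The third comparison, WDD against control, gave the largest shift of the members against all genes. As deposited, 77 members rose, 1 fell and 11 did not pass (limma), against 6.35% of all genes that rose and 31% that fell. In the large subunit 45 genes rose, with a median log2 fold change of 0.92, and in the small subunit 32 rose, with a median of 0.91. The median of all genes was -0.23. After median-of-ratios scaling 83 members rose and 0 fell (1 at an unadjusted p under 0.05), against 15.7% and 17.2% of all genes, with medians of 1.20 and 1.18 against 0.00. The 77 genes that rose as deposited also rose after scaling.

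Rpl37, a small zinc-binding protein, illustrates the size of the shift. It measured 86.7, 62.2, 47.7, 53.4 and 48.3 FPKM in control and 145, 161, 161, 152 and 191 FPKM in WDD libraries, without overlap. The rise was 1.46 ± 0.22 on the log2 scale (adjusted p = 0.00015, limma). Rpl35 rose by 1.41 ± 0.22, to 2416, 2742, 2912, 2823 and 3170 FPKM, again without overlap with control. Rpl35a rose by 1.48 ± 0.34 from 7.20 ± 3.89 to 20.2 ± 6.20 FPKM, and the main Rpl32 row, ENSRNOG00000010746, by 1.39 ± 0.21. In the small subunit Rps21 rose by 1.37 ± 0.28, from 187 ± 71.7 to 470 ± 105 FPKM. Rps28 rose by 1.32 ± 0.26, Rps18l1 by 1.31 ± 0.24 and the minor Rps19l2 row ENSRNOG00000048199 by 1.26 ± 0.25. RefSeq gives Rps19l2 as a synonym of Rps19. Rpl10 and Rpl3 rose least among the named genes, by 0.44 ± 0.15 and 0.34 ± 0.12. Their calls were lost without several single libraries, with adjusted p up to 0.070 for Rpl10 and 0.076 for Rpl3, and that of Rpl9 (0.79 ± 0.27) likewise up to 0.084.

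The gene that fell was Rpl7l1, a paralogue of Rpl7 known from early assembly of the large subunit. It measured 41.2, 55.5, 59.5, 55.2 and 60.6 FPKM in control 1 to 5. COPD libraries measured 34, 22, 32.4, 22.1 and 41.5 FPKM, and WDD libraries 37.4, 36.4, 26.5, 31 and 26.8 FPKM. WDD lay below all control libraries, while COPD 5 overlapped with control 1. The log2 fold change was -0.85 ± 0.18 in COPD and -0.77 ± 0.18 in WDD against control (adjusted p = 0.00048 and 0.0035, limma) as deposited. After median-of-ratios scaling it was 0.06 ± 0.22 and -0.49 ± 0.22, and neither passed.

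Rplp0 and Rplp1 belong to the stalk of the large subunit, which recruits elongation factors. Rplp0, the stalk base, measured 1191, 1092, 1119, 1041 and 1088 FPKM in control, 1053, 1665, 1277, 1086 and 1046 FPKM in COPD and 1434, 1469, 1328, 1528 and 1507 FPKM in WDD libraries. WDD lay above all controls, yet the log2 fold change of 0.39 ± 0.15 missed the threshold as deposited (adjusted p = 0.053, limma). After scaling it was 0.67 ± 0.12 and passed (adjusted p = 0.00082, limma). Rplp1 stood at 1000 ± 135, 1037 ± 311 and 1810 ± 301 FPKM, and rose by 0.85 ± 0.21 in WDD against control and by 0.84 ± 0.21 in WDD against COPD. The second call was lost after scaling, at 0.19 ± 0.17 (adjusted p = 0.39, limma), and the difference between Rplp0 and Rplp1 was not tested. Rpl11, which like Rpl5 binds the 5S ribosomal RNA and Mdm2, stood at 91.3 ± 17.2, 91.2 ± 28.2 and 192 ± 11.6 FPKM. Its rise was 1.08 ± 0.19 in WDD against control, and its difference in COPD against control was -0.04 ± 0.19 (adjusted p = 0.85, limma).

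**Figure D4:**
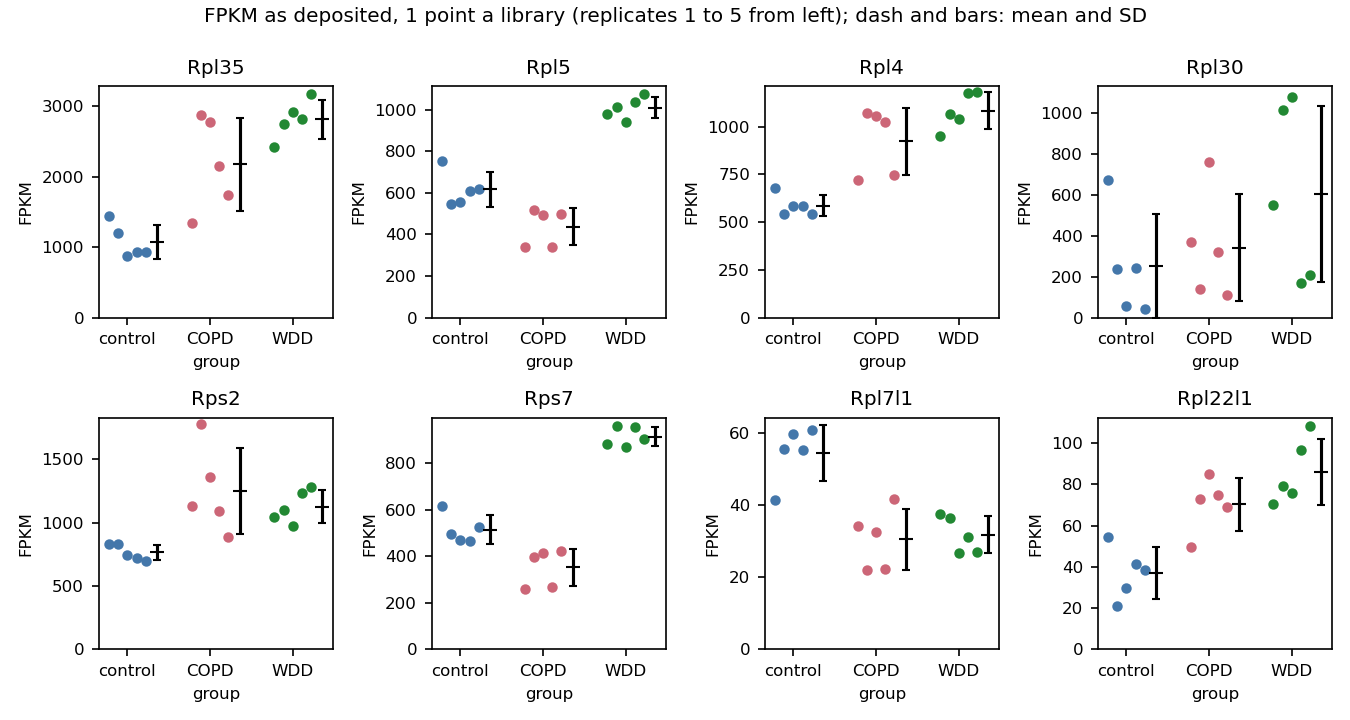
FPKM as deposited of 8 members in each library, with replicates 1 to 5 from left within a group and mean ± SD (n = 5) at right. Rps7 and Rpl5 are lowest in COPD and highest in WDD libraries, Rpl35 and Rpl22l1 are higher in both than in most controls, Rps2 is as high in COPD as in WDD, Rpl7l1 is lower in both, and Rpl30 overlaps in all groups.

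To see which members departed from the rest, every library was also set relative to the median of the 89 members. In COPD against control 20 members were then higher, 15 lower and 54 did not pass (limma), against 6.07% of all genes higher and 68.5% lower. On this scale the large subunit had 13 higher and 8 lower and the small subunit 7 and 7. Values on this scale are log2 differences between groups in a gene's distance from the median member, and not its level. The shares of all genes on this scale follow from setting the libraries to the members, and are no yardstick for the members. With most genes called lower, adjustment changed the member calls little: 20 were higher and 16 lower at an unadjusted p under 0.05. The difference was 0.99 ± 0.24 for Rps9, 0.84 ± 0.15 for Rpl35, 0.81 ± 0.21 for Rpl22l1 and 0.71 ± 0.23 for Rpl39. The minor Rps4x row ENSRNOG00000029574 had -1.11 ± 0.21, Rps19bp1 -1.01 ± 0.20, Rpl7l1 -1.0 ± 0.29 and the Rpl21 row ENSRNOG00000029410 -0.99 ± 0.22. Rpl5 and Rps7 were also lower on this scale, at -0.66 ± 0.16 and -0.72 ± 0.17, and so were Rpl3 at -0.73 ± 0.19 and Rpl10 at -0.69 ± 0.16. The lower place of these 4 genes among the members therefore did not depend on the choice between the values as deposited and median-of-ratios scaling, which cancels in this measure up to the pseudocount.

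In WDD against COPD 2 members were higher and 19 lower relative to the median member, against 6.03% and 29.7% of all genes. Here too the median difference over the 89 members was below 0, at -0.17. The higher ones were the Rpl21 row ENSRNOG00000032803 at 0.60 ± 0.20 (adjusted p = 0.029, limma) and Rps7 at 0.51 ± 0.17 (adjusted p = 0.025, limma). Both calls were lost without COPD 2 or COPD 4, among other libraries, with adjusted p from 0.052 to 0.074. Rps9 was lower by -1.13 ± 0.24, Rps2 by -1.01 ± 0.18 and Rpl14 by -0.81 ± 0.15. Rpl7l1 was lower by -0.82 ± 0.29, a call lost without COPD 1 (adjusted p = 0.10) and without 3 other libraries. The number of lower members ranged from 9 to 21 when single libraries were left out.

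In WDD against control 3 members were higher and 18 lower relative to the median member, against 0.19% of all genes higher and 92.1% lower. The median difference over the 89 members was -0.13 on this scale and not 0, so the split between higher and lower depends on the reference. With a mean FPKM of at least 5 as the filter, 17 members were higher. Rpl37, Rpl35 and the main Rpl32 row ENSRNOG00000010746 were higher, by 0.41 ± 0.14, 0.36 ± 0.15 and 0.35 ± 0.15 (adjusted p = 0.012, 0.032 and 0.030, limma). The calls of Rpl35 and Rpl32 were lost without control 4, WDD 4 or WDD 5, with adjusted p from 0.059 to 0.076, and that of Rpl32 also without control 5. Rpl7l1 was lower by -1.81 ± 0.29 (adjusted p = 1.3e-05, limma), Rps19bp1 by -0.96 ± 0.20, Rps29 by -0.84 ± 0.28 and Rpl6 by -0.79 ± 0.17. Of all 13172 genes, 25 were higher and 12137 lower on this scale, which again follows from the reference. At an unadjusted p under 0.05, 3 members were higher and 19 lower.

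**Figure D5:**
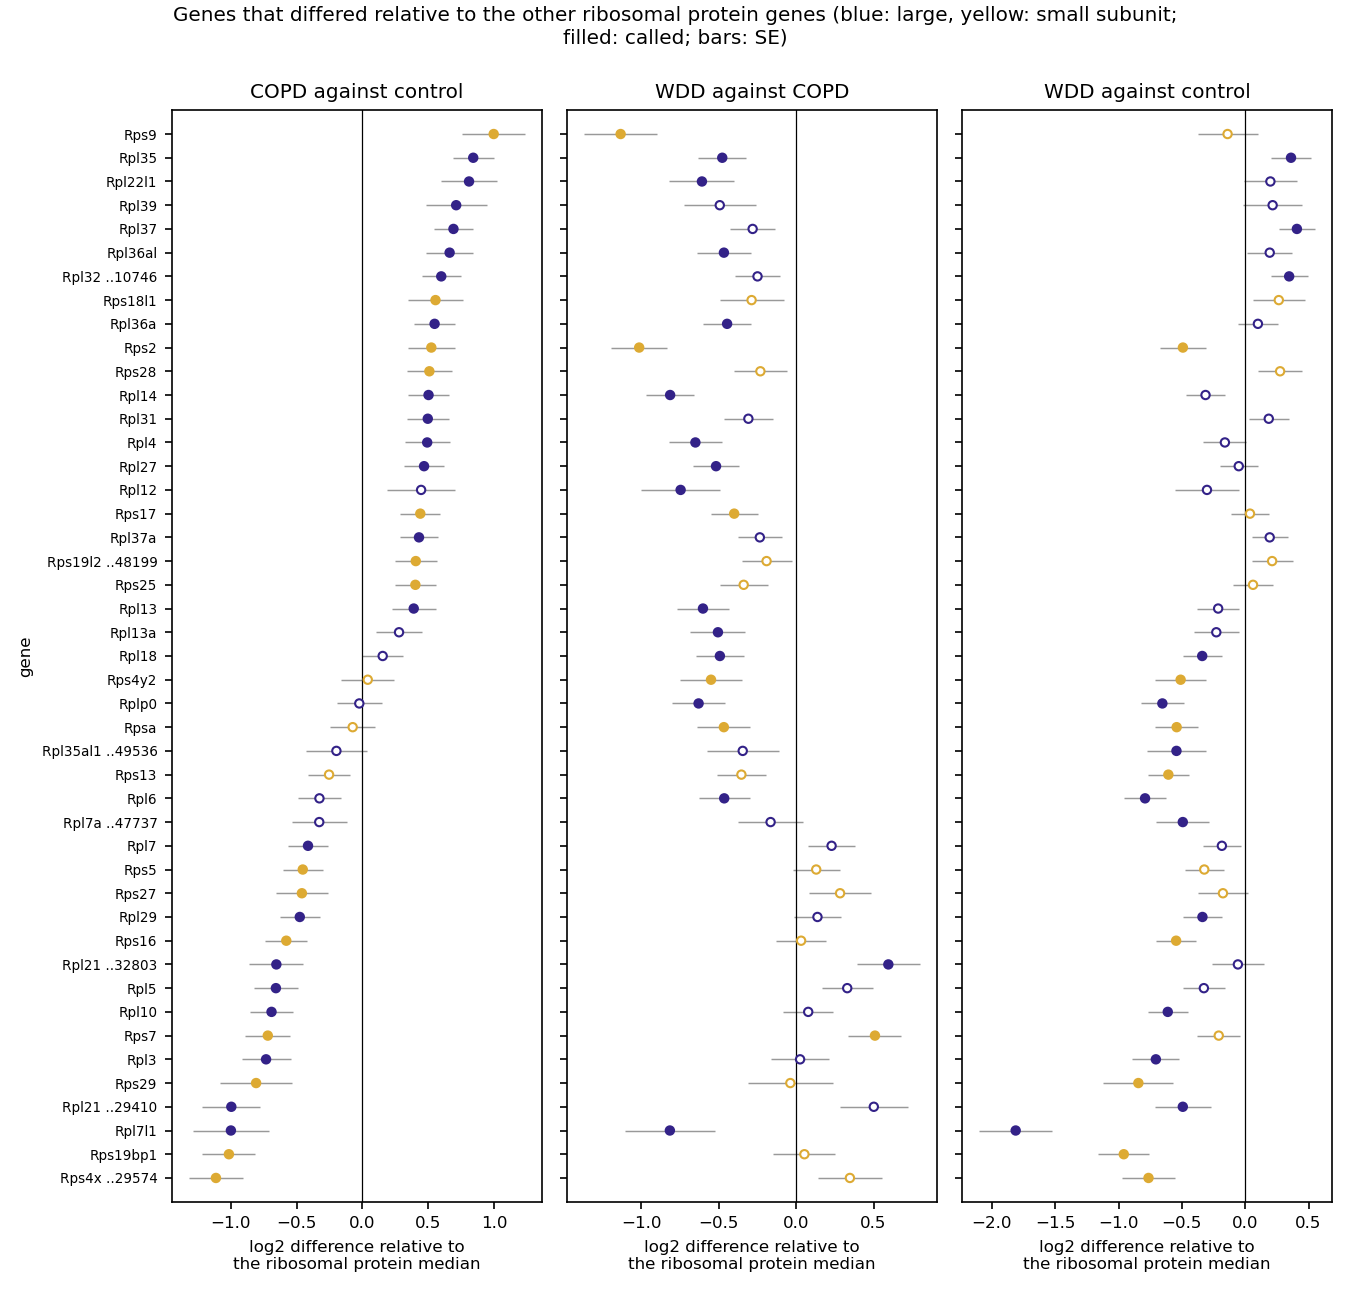
Log2 differences (± SE) of the 45 members that passed in at least 1 comparison after each library was set relative to the median of the 89 members; blue is large and yellow small subunit, and filled points passed an adjusted p of 0.05. Rps9 and Rpl35 are at the upper end in COPD against control, Rps9 and Rps2 are the lowest in WDD against COPD, and Rpl7l1 is the lowest in WDD against control.

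Rps19bp1, the member that is no ribosomal protein, measured 22.1, 21.3, 18.6, 20.7 and 18.9 FPKM in control, 8.92, 12.6, 10.1, 8.67 and 14 FPKM in COPD and 22.5, 21.9, 20.5, 21.9 and 21.3 FPKM in WDD libraries. COPD lay below all other libraries, and WDD and control overlapped. As deposited it fell by 0.86 ± 0.13 in COPD against control and rose by 0.95 ± 0.13 in WDD against COPD, whereas after median-of-ratios scaling it had 0.01 ± 0.14 and 0.34 ± 0.14, neither past the threshold. The minor Rps4x row ENSRNOG00000029574 likewise had COPD below all other libraries and overlap of WDD with control, with 203 to 247 FPKM in control, 76.4 to 136 FPKM in COPD and 225 to 308 FPKM in WDD libraries.

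Paralogue pairs were compared next, since some ribosomal proteins have a second gene used in particular tissues. Rpl36a and its near-identical copy Rpl36al moved by similar amounts: as deposited they rose by 0.70 ± 0.21 and 0.81 ± 0.21 in COPD against control and by 1.15 ± 0.21 and 1.24 ± 0.21 in WDD against control. Rps27 stood at 445 ± 59.6, 374 ± 134 and 810 ± 42.4 FPKM in control, COPD and WDD libraries and Rps27l, a target of p53, at 31.7 ± 8.76, 40.5 ± 15.3 and 57.8 ± 9.07 FPKM. In WDD against COPD Rps27 rose by 1.18 ± 0.20. Rps27l rose by 0.57 ± 0.22 (adjusted p = 0.035, limma), a call lost without any of 6 single libraries, with adjusted p from 0.057 to 0.096, and after scaling its difference was -0.07 ± 0.19. Rpl7 rose by 0.86 ± 0.16 in WDD against control, where Rpl7l1 fell. The difference between members of a pair was not tested.

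The remaining pairs had a partner at a low level or without a row. Rps4y2, at 13 ± 5.33, 14.8 ± 5.67 and 18.2 ± 1.79 FPKM, had 0.54 ± 0.24 in WDD against control (adjusted p = 0.095, limma), while the main Rps4x row ENSRNOG00000003201 rose by 0.85 ± 0.18. Rpl10l, at 3.45 ± 2.21, 2.64 ± 1.23 and 4.18 ± 0.724 FPKM, passed in none of the 3 comparisons under either scaling. Rpl3l, the copy of Rpl3 known from muscle, did not exceed 0.663 FPKM. Rpl39l reached 5.27 FPKM in WDD 1 and was at 0 in 3 of the other WDD libraries. Rpl26, whose paralogue Rpl26l1 had no row, rose by 1.11 ± 0.17 in WDD against control. Rpl22, the partner of Rpl22l1, had no row either, so that pair was not compared.

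A few members varied widely within groups. Rpl30, which binds its own transcript in other species, measured 672, 237, 55.6, 244 and 43.0 FPKM in control, 371, 139, 762, 319 and 109 FPKM in COPD and 552, 1016, 1077, 169 and 207 FPKM in WDD libraries. All 3 groups overlapped, the pooled SD was 1.36 log2 units, the widest of the 89 members, and a log2 fold change of 1.56 ± 0.74 in WDD against control did not pass (adjusted p = 0.11, limma). The minor Rps10 row ENSRNOG00000052141 ranged from 38.2 to 186 FPKM in control libraries. Control 1 was highest among controls for both genes, as for most members. COPD 2 was highest in its group for the Rps10 row but not for Rpl30, and both symbols were named after their values were seen.

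Ribosomal subunit genes outside the name rule were also looked at. Rack1, a scaffold on the head of the small subunit, rose by 0.63 ± 0.14 in WDD against COPD as deposited (adjusted p = 0.0012, limma), but had -0.02 ± 0.11 after scaling (adjusted p = 0.89, limma). Its difference of 0.33 ± 0.14 in WDD against control did not pass as deposited (adjusted p = 0.074, limma) and was 0.61 ± 0.11 after scaling (adjusted p = 0.0006, limma). Fau was listed at or near 0.

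Genes of related pathways were read against the share of all genes called. As deposited 8.23% of all genes rose and 66.4% fell in COPD against control, 57.1% rose and 6.63% fell in WDD against COPD, and 6.35% rose and 31% fell in WDD against control. After scaling the shares were 30% and 32.6%, 23.3% and 21.4%, and 15.7% and 17.2% in the same order. In the lists from here on, counts given as none were also 0 at an unadjusted p under 0.05, except where another count is given. Of 29 tested genes of ribosome assembly and ribosomal RNA processing, 11 rose and 2 fell in COPD against control as deposited, with a median of 0.28, and 27 rose after scaling, with a median of 1.15. In WDD against COPD 1 rose and 6 fell, with a median of -0.10, and after scaling none of the 29 rose and 25 fell, with a median of -0.74. In WDD against control 3 rose and 1 fell as deposited, and 8 rose and none fell after scaling (1 at an unadjusted p under 0.05), with medians of 0.10 and 0.37. Gnl3, the nucleolar GTPase nucleostemin, stood at 30.6 ± 9.71, 62.5 ± 13.5 and 31.8 ± 2.70 FPKM in control, COPD and WDD libraries. It rose by 1.03 ± 0.20 in COPD against control and fell by 0.93 ± 0.20 in WDD against COPD (adjusted p = 0.00017 and 0.00069, limma). Nop56, a core protein of box C/D RNA particles, rose by 0.73 ± 0.13 and fell by 0.69 ± 0.13, and Nop2, a ribosomal RNA methyltransferase, fell by 0.61 ± 0.13 in WDD against COPD. Npm1, the nucleolar chaperone nucleophosmin, rose by 0.74 ± 0.14 in COPD and by 0.64 ± 0.14 in WDD against control.

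Elongation factors and other genes with TOP messages were tested as the next list. Of 14, 1 rose and 7 fell in COPD against control, 12 rose and none fell in WDD against COPD, and 5 rose and none fell in WDD against control as deposited, with medians of -0.36, 0.79 and 0.26. After scaling 8 rose and 3 fell, 5 rose and none fell, and 8 rose and none fell. Eef2, the translocation factor, stood at 742 ± 72.3, 280 ± 35.6 and 658 ± 33.8 FPKM, and its log2 fold changes were -1.41 ± 0.13 in COPD against control and 1.24 ± 0.13 in WDD against COPD (adjusted p = 9.3e-08 and 1.4e-06, limma). Both held after scaling, at -0.48 ± 0.14 and 0.59 ± 0.14. Eif3f, an initiation factor subunit with a TOP message, had -1.42 ± 0.15 and 1.67 ± 0.15, and Eif4b had -1.26 ± 0.14 in COPD against control. After scaling these were -0.50 ± 0.15 and 1.03 ± 0.15 for Eif3f and -0.35 ± 0.10 for Eif4b, and all 3 passed. Eef1g rose by 1.00 ± 0.12 in WDD against COPD, and by 0.35 ± 0.12 after scaling. In WDD against control Tpt1, the translationally controlled tumor protein, rose by 1.11 ± 0.23, Naca by 0.88 ± 0.15 and Eef1b2 by 0.81 ± 0.19.

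Of 28 initiation factors, 4 rose and 15 fell in COPD against control, 16 rose and 1 fell in WDD against COPD, and 3 rose and 4 fell in WDD against control as deposited. The 15 that fell were a smaller share than the 66.4% of all genes, and the 16 that rose were near the 57.1% of all genes. After scaling 18 rose and 1 fell, none rose and 8 fell, and 10 rose and 1 fell in the same order. Eif4g1, the scaffold of the cap-binding complex, fell by 1.65 ± 0.21 in COPD and by 1.00 ± 0.21 in WDD against control, from 33.8 ± 6.80 to 10.4 ± 4.35 and 16.1 ± 1.38 FPKM, and had -0.78 ± 0.26 and -0.73 ± 0.26 after scaling, both past the threshold. Eif3i and Eif5b rose by 0.94 ± 0.18 and 0.52 ± 0.12 in WDD against control. Of 14 genes of RNA polymerase I, which transcribes ribosomal RNA, 2 rose and 7 fell, 6 rose and 1 fell, and 4 rose and 2 fell in the 3 comparisons in order as deposited. The 7 and the 6 were smaller shares than the 66.4% of all genes that fell and the 57.1% that rose. After scaling 8 rose and 1 fell, none rose (1 at an unadjusted p under 0.05) and 7 fell, and 5 rose and 1 fell. Rrn3, its initiation factor, fell by 1.59 ± 0.20 in COPD and by 0.98 ± 0.20 in WDD against control, while the subunit gene Polr1e rose by 1.23 ± 0.18 in COPD libraries. After scaling Rrn3 had -0.85 ± 0.23 and -0.72 ± 0.23 and Polr1e 2.04 ± 0.21, and all 3 passed.

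The mTOR pathway regulates the TOP messages. Of 14 of its genes, 2 rose and 10 fell in COPD against control, 8 rose and 1 fell in WDD against COPD, and 2 rose and 5 fell in WDD against control as deposited. Their medians of -0.93, 0.47 and -0.27 differed from those of all genes by -0.11, -0.08 and -0.04. After scaling 5 rose and 4 fell, 1 rose and 5 fell, and 4 rose and 4 fell. Mtor, the kinase itself, stood at 9.20 ± 1.14, 4.11 ± 0.868 and 6.82 ± 0.200 FPKM and fell by 1.01 ± 0.14 in COPD against control as deposited, but had -0.22 ± 0.10 after scaling (adjusted p = 0.083, limma). Tsc1, an inhibitor of the pathway, fell by 2.0 ± 0.19 in COPD against control and by 1.25 ± 0.19 in WDD against control, and by 1.28 ± 0.21 and 0.98 ± 0.21 after scaling. Larp1 fell by 1.25 ± 0.23 in WDD against control, from 22.9 ± 4.72 to 8.86 ± 0.747 FPKM, and by 0.98 ± 0.27 after scaling (adjusted p = 0.010, limma).

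Free ribosomal proteins are known to stabilize p53 through Mdm2, so genes of that response were listed. Of 9 tested, 1 rose and 5 fell in COPD against control, 3 rose and 1 fell in WDD against COPD, and 1 rose and 2 fell in WDD against control as deposited. The 5 and the 3 were smaller shares than the 66.4% of all genes that fell and the 57.1% that rose. After scaling 5 rose and 3 fell, 1 rose and 4 fell, and 1 rose and 2 fell. Mdm4, a partner of Mdm2, fell by 2.16 ± 0.19 and Phlda3, a p53 target, by 2.14 ± 0.33 in COPD against control, and by 1.32 ± 0.19 and 1.26 ± 0.31 after scaling. Bax, a promoter of apoptosis, rose by 0.79 ± 0.21 in WDD against control. Of 11 genes of ribosome-associated chaperones and quality control, 2 rose and 6 fell, 4 rose and none fell, and 2 rose and 2 fell in the same order as deposited. After scaling 6 rose and 1 fell, 1 rose and 4 fell, and 2 rose and none fell. Ltn1, the ubiquitin ligase of stalled ribosomes, fell by 1.23 ± 0.15 in COPD against control and rose by 0.86 ± 0.15 in WDD against COPD. After scaling it had -0.45 ± 0.11 and 0.33 ± 0.11, both past the threshold.

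A list unrelated to translation had medians near those of the ribosomal proteins in both comparisons with control, but differed in its calls in WDD against COPD after scaling. Of 41 rows for short nuclear genes of the respiratory chain, 13 rose and 4 fell in COPD against control, 23 rose and none fell in WDD against COPD, and 32 rose and none fell in WDD against control as deposited. Their medians were 0.20, 0.58 and 0.86, against 0.15, 0.73 and 0.92 for the 89 members. After median-of-ratios scaling the medians were 1.10, -0.07 and 1.13, against 1.06, 0.10 and 1.19. On that scale 38 rose and none fell, 1 rose and 8 fell, and 41 rose and none fell. Of the 89 members, 18 rose and 5 fell in WDD against COPD after scaling. Atp5f1e, the epsilon subunit of ATP synthase, stood at 182 ± 54.5, 482 ± 221 and 458 ± 79.1 FPKM and rose by 1.31 ± 0.28 in COPD and by 1.36 ± 0.28 in WDD against control. Cox8a, a subunit of cytochrome oxidase, rose by 1.15 ± 0.21 in WDD against COPD as deposited, but its 0.50 ± 0.20 after scaling did not pass (adjusted p = 0.054, limma). The respiratory chain list was chosen for short transcripts, and transcript lengths themselves were not analysed here, so the part of transcript length in the shift of the members was not tested.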

How the data were processed

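RNA was sequenced from 15 rat lung libraries, 5 each of control, COPD and WDD rats. The submitters' processing notes name cutadapt, HISAT2 and StringTie, with no version, and the rat build Rnor_6.0. Per the labels' protocols, libraries were made with an NEBNext Ultra kit from TRIzol RNA. The authors deposited FPKM for each gene. With read counts, strand use and depth not given in the sources, counting intervals are left out.

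Genes with at least 1 FPKM in at least 5 libraries (13172) were kept, and log2(FPKM + 1) was fitted by group over all 15 libraries with limma 3.58.1 (eBayes with trend, R 4.3.3). Fold changes are on this scale, which understates those of low genes. Tests were two-sided, adjusted by Benjamini-Hochberg over all genes and called under 0.05. The fit was repeated after median-of-ratios scaling and after subtracting each library's median over the 89 members. The code was tested on simulated data with noise drawn for each gene on its own, so shifts shared by members within a library were not simulated. There, 6 of 67 genes changed by 0.5 log2 units were called, 47 of 67 changed by 1 and 64 of 66 changed by 2.

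The members and gene lists were chosen with earlier results of these data known. Named are, per comparison and subunit, up to 4 members with the largest rise and fall among those called alike by both scalings, up to 4 each way relative to the median member, members with opposite calls, the 3 highest and 3 lowest by level, stalk genes, Rpl5, Rpl11, paralogue pairs, Rps19bp1, and up to 3 genes of lowest p per list. Other names are examples, and some genes the rule names are not reported here. Promoter sequences are from RefSeq (GRCr8), and no coordinates of the authors' build were used. Tables and figures used Python 3.11.15 with pandas 2.3.3, numpy 2.4.6 and matplotlib 3.10.9. Alternatives were other scalings, pseudocount, filters, variance models, library weights, a fit of only 2 groups, a replicate block and leaving out each library.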

Additional observations from a re-analysis of the deposited data

Results flagged for a closer look

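In each group of 5 libraries, a value was picked out where its gap to the nearest other library exceeded 0.71 of the group's range (Dixon's critical value for 5). Of 150 groups of values tested, 12 were picked out. A chance rate of about 1 in 20 holds for independent groups, and these are not, since many members were highest or lowest in the same library. Control 1 accounted for 8 of the 12.

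Control 1 was the highest control library for the median small subunit gene, at 8.69 on the log2(FPKM + 1) scale against 8.12 to 8.26 in the other controls. It was also the highest control for Rpl26 at 9.16 (572 FPKM), Rpl36a at 7.75 (214 FPKM) and Rpl41 at 10.4 (1361 FPKM). The same held for Rps27l at 5.59 (47.3 FPKM, against 27.2 to 28.9 in the other controls), Rps4x ENSRNOG00000003201 at 8.90 (477 FPKM) and Rps19l2 ENSRNOG00000048199 at 5.58 (46.8 FPKM, against 22.8 to 26.3). For Rpl7l1 control 1 was the lowest control, at 5.40 (41.2 FPKM, against 55.2 to 60.6). Without control 1, 27 members rose and 8 fell in COPD against control, and 83 rose and 1 fell in WDD against control.

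In COPD libraries, Rpl35a stood at 4.24 in COPD 2 (18 FPKM, against 8 to 9.68 in the others) and Rps4x ENSRNOG00000029574 at 6.27 in COPD 4 (76.4 FPKM, against 116 to 136). In WDD libraries, WDD 5 was highest for Rpl10l at 2.69 (5.45 FPKM, against 3.71 to 4.04) and for Rpl14 at 10.04 (1048 FPKM, against 904 to 931).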

How the results depend on the processing

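The direction of the ribosomal protein genes in COPD against control, and the size of their shift in WDD against COPD, changed with the scaling between libraries. The rise in WDD against control was found under all scalings run, with 50 to 83 members called higher. Read counts were not analysed here, so levels near 1 FPKM carry an unknown counting error.

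With median-of-ratios scaling, COPD against control had 77 members higher and 0 lower, with medians of 1.10 (large) and 1.05 (small). Rpl3 (0.34), Rpl10 (0.39), Rpl5 (0.42), Rps29 (0.11), Rps4x ENSRNOG00000003201 (0.87), Rpl26 (0.87), Rpl7 (0.66), Rpl7l1 (0.059), Rps27 (0.62), Rps19bp1 (0.0065) and Rpl11 (0.88) changed sign. WDD against COPD had 18 higher and 5 lower, with medians of 0.065 and 0.17, and Rplp0 (-0.38) and Rps27l (-0.072) changed sign. WDD against control had 0 lower and a small subunit median of 1.18.

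With quantile normalisation, COPD against control had 19 lower, and Rplp1 (-0.39), Rplp0 (-0.43), Rpl10l (0.82), Rpl9 (0.89), Rpl35al1 ENSRNOG00000049536 (0.90) and Rps29 (0.38) changed sign. WDD against COPD had 40 higher and 2 lower, with medians of 0.31 and 0.44, and Rps15al4 (-0.054) and Rps6 (-0.19) changed sign. WDD against control had 2 lower and a small subunit median of 0.54, and Rplp0 (-0.45) and Rpl10 (-0.34) changed sign.

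Dividing by the FPKM sum over all genes gave 1 higher and 40 lower in COPD against control, with medians of -0.39 and -0.41, and Rplp1 (-0.56) and Rplp0 (-0.44) changed sign. WDD against control had 50 higher, with medians of 0.54 and 0.56, and Rpl3 had -0.047. Scaling to that sum without mitochondrial genes gave 46 higher in COPD against control, and 43 higher and 1 lower in WDD against COPD, with medians of 0.33 and 0.46. Library weights gave 39 higher in COPD against control. With a mean FPKM of at least 5, the counts of members higher relative to the median member changed. They were 33 in COPD against control, 5 in WDD against COPD and 17 in WDD against control. Members under that mean were left out as well, so the median member was recomputed over those left. The cause of the changes under these settings was not tested.

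Leaving out each library in turn gave 17 to 31 higher and 8 to 12 lower in COPD against control, with medians of 0.05 to 0.32 (large) and 0.00 to 0.26 (small). WDD against COPD gave 56 to 76 higher and 0 lower, with medians of 0.53 to 0.79 and 0.72 to 0.93, and WDD against control 71 to 83 higher and 1 lower, with medians of 0.87 to 0.97 and 0.88 to 1.03. Relative to the median member the counts were 17 to 23 higher and 13 to 19 lower, 0 to 6 and 9 to 21, and 1 to 5 and 13 to 27. The lowest count of 56 came without COPD 1.

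Libraries were not paired by replicate number in the main fit. Of 15 same-numbered pairs, 1 correlated above 0.1, and a shared batch was not tested. With a replicate block, 20 members rose and 10 fell in COPD against control, 61 rose in WDD against COPD, and 73 rose and 1 fell in WDD against control. Relative to the median member, the block gave 12 lower in WDD against COPD and 1 higher in WDD against control. For the genes named, 2269 of their values under alternatives kept direction and side of the threshold, 126 no longer passed, 63 newly passed and 26 changed sign.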
